A study of Mus musculus with 6 samples.

Results

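The 4 classical MHC class II chains and their chaperone, the invariant chain, were 9.81 to 12.3 times as high in macrophages sorted from CT26-Sg-C3 tumours as in macrophages from CT26-Sg-Con tumours. The genes described here are the 4 classical chains H2-Aa, H2-Ab1, H2-Eb1 and H2-Ea-ps, the less studied beta chain gene H2-Eb2, the invariant chain gene Cd74, the peptide exchange genes H2-DMa, H2-DMb1 and H2-DMb2, and the transactivator gene Ciita. These 10 genes were found by symbol among the 15487 genes of the deposited table, and each symbol named 1 row. The samples are tumour-associated macrophages, sorted by flow cytometry on day 15 after tumour challenge; CT26 is a colon carcinoma line of BALB/c mice. The macrophages are labelled BALB/C and wild type in both groups. The tumours are labelled CT26-Sg-Con (3 libraries) or CT26-Sg-C3 (3 libraries); the names read as a control guide RNA and a guide RNA against complement C3 in the tumour cells, which the labels do not spell out. Whether each library is a different animal, and whether each tumour line is a single clone, is not stated in the labels, so the p-values below reflect variation among libraries that may be purely technical.

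MHC class II molecules present peptides from the endosome to CD4 T cells. An alpha and a beta chain form each molecule: H2-Aa pairs with H2-Ab1 to give I-A, and the product of H2-Ea pairs with H2-Eb1 to give I-E. The reference strain C57BL/6 carries an inactive H2-Ea, hence the suffix of H2-Ea-ps, whereas BALB/c mice carry a working copy. Cd74 encodes the invariant chain that fills the groove of a new molecule, and the H2-DM heterodimer, made of H2-DMa with H2-DMb1 or H2-DMb2, removes its last fragment and lets peptide in. Ciita encodes the coactivator that docks on RFX, CREB and NF-Y factors bound to the X and Y boxes in front of these genes, and in macrophages it is induced by interferon gamma.

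The promoter letters are shown because the members below differed between the groups in 1 direction but by unequal amounts. RefSeq promoter windows of GRCm38.p6, from 250 bases before to 50 bases after a start site, were at hand for 6 of the 10 members, with 7 windows in all because H2-DMa has a pair of start sites. Each line gives the bases from 45 before to 12 after the Y box core, 5′ to 3′ on the strand of the gene, with matches to the X box core (the longer run) and the Y box core GATTGG in capitals. These are letters of the C57BL/6J reference, not of BALB/c.
H2-Aa: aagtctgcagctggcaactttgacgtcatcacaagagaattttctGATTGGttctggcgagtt
H2-Eb1: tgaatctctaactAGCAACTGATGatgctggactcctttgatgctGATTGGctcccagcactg
H2-Eb2: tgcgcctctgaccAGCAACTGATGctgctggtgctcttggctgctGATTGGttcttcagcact
H2-DMb1: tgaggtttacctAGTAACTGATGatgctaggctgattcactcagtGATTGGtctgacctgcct
H2-DMb2: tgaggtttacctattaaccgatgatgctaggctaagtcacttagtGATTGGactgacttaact
H2-DMa: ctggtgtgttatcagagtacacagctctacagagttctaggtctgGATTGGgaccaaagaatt

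These stretches lie at chr17:34287855-34287917 on the minus strand for H2-Aa, and on the plus strand at chr17:34305762-34305824 for H2-Eb1, chr17:34325529-34325591 for H2-Eb2, chr17:34153084-34153146 for H2-DMb1, chr17:34145113-34145175 for H2-DMb2 and chr17:34125274-34125336 for H2-DMa. The Y box core began 49 bases before the start site in H2-Aa, 60 in H2-Eb1, 62 in H2-DMb1, 91 in H2-DMb2, 101 in H2-Eb2 and 199 before the second start site of H2-DMa, and the window of the first H2-DMa start site held neither core. The H2-Eb1 window held 2 matches to the Y box core, of which the one nearest the start site on the strand of the gene is shown. On both strands, 16.1% of the 32851 promoter windows in the table held the Y box core and 0.968% held the X box core. An X box core followed by a Y box core at 25 to 40 bases, start to start, on the strand of the gene was found in 3 windows, those of H2-DMb1 (33 bases apart), H2-Eb1 (32) and H2-Eb2 (32). That distance range was chosen after the sequences were seen, and the letters were taken from class II promoters, so this count is a description of the letters only. Only exact matches were counted, so a stretch without capitals, as in H2-Aa or H2-DMb2, can still hold an X box with other letters. Of the interferon-related letters searched on both strands, the GAS element TTCNNNGAA (8.3% of all windows) was found in the H2-DMb2 window, and the E box CACGTG (7.15%) and the IRF element (3.44%) were found in none of the members' windows.

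The 6 libraries were alike in size. Values are FPKM, fragments scaled to gene length and to the mapped fragments of the library. They summed to between 474579 and 487358 per library, and the steps between low values imply about 17.6 to 19.3 megareads each. Across all genes, Pearson r between log2 profiles lay between 0.986 and 0.990 within a group and between 0.945 and 0.974 across the groups. C3, the gene in the group name, measured 89.94, 78.24 and 59.66 FPKM in Sg-Con and 150.59, 199.14 and 169.61 FPKM in Sg-C3, which does not check the labels because the macrophages are labelled wild type. Adgre1, the macrophage gene of F4/80, stood at 159.6 to 180.52 FPKM in Sg-Con and 137.82 to 193.94 in Sg-C3. It is 1 of 11 macrophage markers described below, of which Lyz2, Cd68, Itgam and Mertk were called lower in Sg-C3. Sg-Con replicate 2 stood apart from the other 2 control libraries in the genes described here: its values were the lowest of all 6 libraries for each of the 9 members that were tested. The 10 genes together made up 0.543%, 0.118% and 0.756% of the summed FPKM in Sg-Con replicates 1, 2 and 3, and 4.31%, 5.62% and 4.84% in Sg-C3 replicates 1, 2 and 3.

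Differences between the groups were tested with limma on log2(FPKM + 1), and a positive log2 fold change means a higher level in Sg-C3. The added 1 shrinks the fold changes of genes with low FPKM. Of the 10 members 9 passed the filter of at least 1 FPKM in at least 3 libraries, 8 of them with at least 1 FPKM in every library. All 9 were called higher at an adjusted p below 0.05, where 44.4% of the 11198 tested genes were called, 12.7% higher and 31.7% lower. That split of 1418 higher and 3554 lower genes became 2088 and 2134 after median-ratio scaling, under which the 9 members were also called higher. In all 9 the 3 Sg-C3 values lay above the 3 Sg-Con values, as they did for 16.2% of tested genes. The median log2 fold change of the 9 was 3.68, and that of all tested genes was -0.16. By fold change, 5 of the members stood at places 4 to 8 among all tested genes, H2-DMb1 at place 14, H2-DMb2 at 48, Ciita at 108 and H2-DMa at 278. These are bulk samples, in which more cells with class II and more class II RNA per cell cannot be told apart.

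H2-Aa, the alpha chain of I-A, measured 361.18, 74.88 and 561.44 FPKM in Sg-Con replicates 1, 2 and 3 and 3499.84, 4528.84 and 3800.65 FPKM in Sg-C3 replicates 1, 2 and 3. H2-Ab1, its beta partner, measured 329.19, 73.2 and 482.23 FPKM in Sg-Con and 3192.5, 3901.6 and 3353.63 FPKM in Sg-C3. Both chains were low in Sg-Con replicate 2, higher in replicates 1 and 3, and close together in the 3 Sg-C3 libraries, the lowest of which was 6.23 times (H2-Aa) and 6.62 times (H2-Ab1) the highest control. Mean levels rose from 332 ± 245 to 3943 ± 529 FPKM for H2-Aa and from 295 ± 207 to 3483 ± 372 FPKM for H2-Ab1 (SD, n = 3 per group). The log2 fold changes were 3.98 (SE 0.66, limma adjusted p = 0.00493) and 3.93 (SE 0.62, adjusted p = 0.00421).

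The I-E pair did the same. H2-Ea-ps, the alpha chain, measured 352.88, 68.65 and 544.67 FPKM in Sg-Con and 3245.24, 4563.46 and 3709.1 FPKM in Sg-C3, a rise of 11.9-fold in the means (log2 fold change 4.0, SE 0.68, limma adjusted p = 0.0053). H2-Eb1, the beta chain, measured 220.04, 38.98 and 314.32 FPKM in Sg-Con and 2087.96, 2686.75 and 2302.09 FPKM in Sg-C3, a rise of 12.3-fold (log2 fold change 4.06, SE 0.69, adjusted p = 0.00526). The gene named as a pseudogene thus stood at the level of the I-A chains in these BALB/c samples. Reads of BALB/c class II genes were placed on a genome of another haplotype, which can lower the FPKM of polymorphic exons in both groups and was not tested.

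H2-Eb2 was the exception. It measured 0.02, 0 and 0.03 FPKM in Sg-Con and 0.05, 0.03 and 0.16 FPKM in Sg-C3, overlapped between the groups, and passed no filter (without a filter, log2 fold change 0.09, SE 0.07, adjusted p = 0.382). With a transcript of 3392 bases these values correspond to an estimated 0 to 10 reads per library. No difference was detectable at this depth, although the gene carries the same X and Y box letters, 32 bases apart, as H2-Eb1.

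Cd74, the invariant chain gene, was the most abundant member. It measured 1123.38, 224.82 and 1496.92 FPKM in Sg-Con and 8292.31, 10366.89 and 9251.35 FPKM in Sg-C3 (means 948 ± 654 and 9304 ± 1038, SD, n = 3 per group). The rise was 9.81-fold in the means (log2 fold change 3.68, SE 0.64, limma adjusted p = 0.00558). By FPKM Cd74 was the first gene of the table in each of the 3 Sg-C3 libraries, and it stood at places 39, 366 and 29 in Sg-Con replicates 1, 2 and 3. H2-Aa stood at places 7, 6 and 7 in Sg-C3 and at 230, 1026 and 147 in Sg-Con.

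The peptide exchange genes rose too, with smaller fold changes. H2-DMa, the alpha chain of H2-DM, measured 86.2, 50.09 and 83.97 FPKM in Sg-Con and 166.52, 197.38 and 197.4 FPKM in Sg-C3, a rise of 2.55-fold (log2 fold change 1.37, SE 0.21, limma adjusted p = 0.00377). H2-DMb1, a beta chain, measured 53.41, 11.99 and 73.33 FPKM in Sg-Con and 311.74, 405.97 and 351.14 FPKM in Sg-C3, a rise of 7.7-fold (log2 fold change 3.25, SE 0.58, adjusted p = 0.00618). H2-DMb2, the neighbouring beta chain gene, measured 49.35, 17.61 and 50.21 FPKM in Sg-Con and 196.65, 248.73 and 230.93 FPKM in Sg-C3, a rise of 5.77-fold (log2 fold change 2.63, SE 0.37, adjusted p = 0.0031). In Sg-Con replicate 2 the value of H2-DMa was lower by less than that of H2-DMb1: the highest control was 1.72 times the lowest for H2-DMa, 2.85 times for H2-DMb2 and 6.12 times for H2-DMb1. H2-DMb1 and H2-DMb2 are similar genes and can share reads, so the split between them is uncertain.

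Ciita, the transactivator gene, was far below its targets. It measured 1.48, 0.32 and 2.39 FPKM in Sg-Con and 5.79, 9.19 and 11.56 FPKM in Sg-C3, without overlap. With its longest coding transcript of 6007 bases these values correspond to an estimated 35 reads in Sg-Con replicate 2, 171 and 273 in Sg-Con replicates 1 and 3, and 608 to 1298 in Sg-C3. The means rose 6.33-fold, from 1.4 ± 1.04 to 8.85 ± 2.9 FPKM (SD, n = 3 per group), with a log2 fold change of 2.10 (SE 0.37, limma adjusted p = 0.00566). With a pseudocount of 0.1 in place of 1 its log2 fold change was 2.86. Ciita can start from alternative promoters, and gene-level values do not tell them apart.

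**Figure D1:**
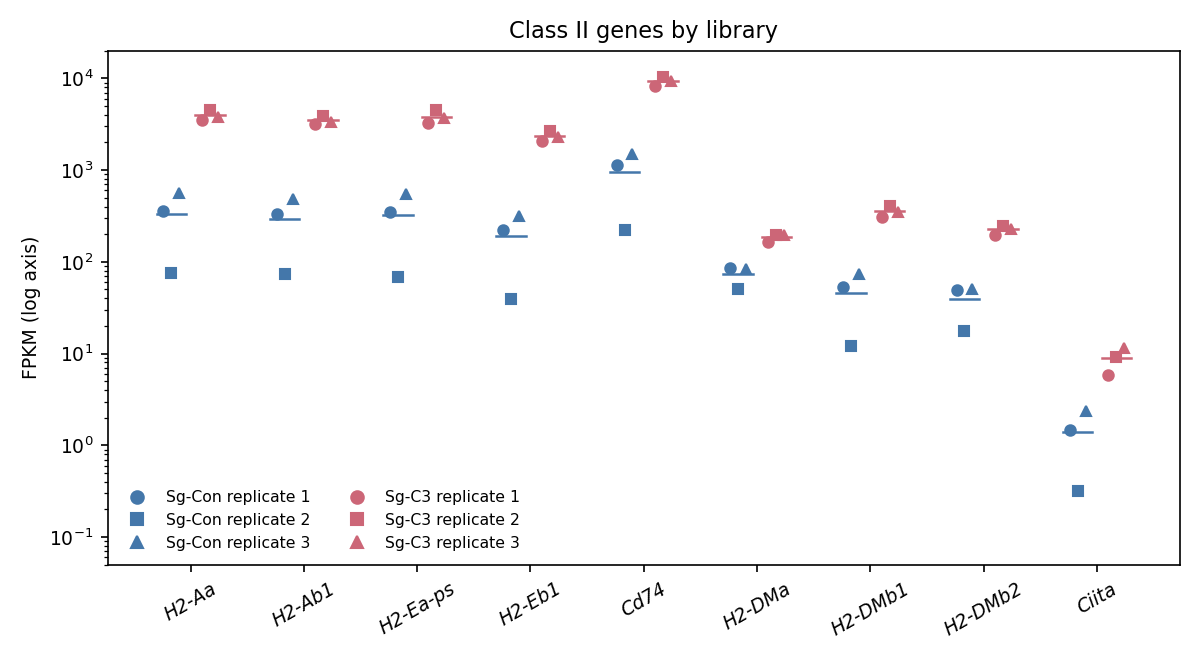
FPKM (log axis) of the 9 tested class II genes in each of the 6 libraries, with blue for Sg-Con, red for Sg-C3, one marker shape per replicate number and a horizontal line at the group mean; H2-Eb2, at most 0.16 FPKM, is left out. Every Sg-C3 value lies above every Sg-Con value of the same gene, and Sg-Con replicate 2 (blue square) is the lowest library for each gene.

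Leaving out Sg-Con replicate 2 lowered every fold change and ended no call. Without it the log2 fold changes were 3.12 for H2-Aa, 3.12 for H2-Ab1, 3.11 for H2-Ea-ps, 3.15 for H2-Eb1, 2.84 for Cd74, 1.12 for H2-DMa, 2.48 for H2-DMb1, 2.15 for H2-DMb2 and 1.72 for Ciita, with limma adjusted p from 0.00148 for Cd74, H2-Ab1, H2-Eb1 and H2-DMb2 to 0.0103 for Ciita. The control group was the more variable one. Its coefficient of variation was 73.5% for H2-Aa, 68.9% for Cd74, 74.3% for Ciita and 27.6% for H2-DMa, against 13.4%, 11.2%, 32.8% and 9.53% in Sg-C3.

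The order of the levels was similar in the groups. In Sg-C3 it ran Cd74, H2-Aa, H2-Ea-ps, H2-Ab1, H2-Eb1, H2-DMb1, H2-DMb2, H2-DMa, Ciita and H2-Eb2 by mean FPKM. The ranges of H2-Aa, H2-Ea-ps and H2-Ab1 overlapped with their neighbours there, as did those of H2-DMb2 and H2-DMa, and the other neighbours were apart. In Sg-Con the first 5 genes had the same order, but all neighbouring ranges overlapped down to H2-DMb2. Compared within each control library, Cd74 over H2-Aa, H2-Aa over H2-Ea-ps and H2-Ab1 over H2-Eb1 held in 3 of 3. H2-Ea-ps over H2-Ab1 held in 2 of 3. H2-DMa stood above H2-DMb1 in all 3 control libraries and below it in all 3 Sg-C3 libraries.

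Ratios within a library compare partners directly. For 14 ratios between partners of a complex or between Ciita and a target (a ratio of H2-Eb2 was not formed because of its 0), log2 ratios were compared with an exact two-sided permutation test, which cannot go below p = 0.1 with 3 against 3 libraries. The groups did not overlap for 10 of the 14, each with exact p = 0.1 (adjusted over the 14 ratios, 0.14), so none could pass the threshold.

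The ratio between the chains of I-A and between those of I-E varied little across the 6 libraries. H2-Aa over H2-Ab1 was 1.10, 1.02 and 1.16 in Sg-Con and 1.10, 1.16 and 1.13 in Sg-C3 (exact permutation p = 0.7), while H2-Aa itself ranged from 74.88 to 4528.84 FPKM. H2-Ea-ps over H2-Eb1 was 1.60, 1.76 and 1.73 in Sg-Con and 1.55, 1.70 and 1.61 in Sg-C3 (exact permutation p = 0.3). Both ratios overlapped between the groups, which with 3 libraries a group does not show that they are equal. H2-Eb1 over H2-Ab1 was 0.668, 0.533 and 0.652 in Sg-Con and 0.654, 0.689 and 0.686 in Sg-C3 (exact permutation p = 0.2), lowest in Sg-Con replicate 2.

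The ratio of Cd74 to a chain it chaperones was lower in each Sg-C3 library. Cd74 over H2-Ab1 was 3.41, 3.07 and 3.10 in Sg-Con and 2.60, 2.66 and 2.76 in Sg-C3, a difference of -0.26 in log2 ratio (exact permutation p = 0.1). All 3 control libraries were above all 3 Sg-C3 libraries, and the spread within each group was small beside the gap (SD of 0.08 and 0.04 in log2 ratio).

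The ratios with H2-DMa had the largest differences. H2-DMa over H2-DMb1 was 1.61, 4.18 and 1.15 in Sg-Con and 0.534, 0.486 and 0.562 in Sg-C3, 3.75 times as high in controls (exact permutation p = 0.1; log2 difference -1.91, and -1.37 without Sg-Con replicate 2, which held the highest ratio). H2-DMb2 over H2-DMb1 was 0.924, 1.47 and 0.685 in Sg-Con and 0.631, 0.613 and 0.658 in Sg-C3, so that Sg-Con replicate 3 lay close to the Sg-C3 values (log2 difference -0.62, and -0.33 without Sg-Con replicate 2). H2-DMa over H2-Aa, the exchange chain against a chain it serves, was 0.239, 0.669 and 0.15 in Sg-Con and 0.0476, 0.0436 and 0.0519 in Sg-C3, 6.05 times as high in controls (exact permutation p = 0.1; log2 difference -2.60, and -1.99 without Sg-Con replicate 2).

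The classical chains per unit of Ciita stood higher in every Sg-C3 library than in any control. H2-Aa per Ciita was 244, 234 and 235 in Sg-Con, a spread of 1.04-fold from lowest to highest, although Ciita itself differed by 7.47-fold between those libraries. In Sg-Con replicate 2 this ratio rests on an estimated 35 reads of Ciita, so the closeness of the control values is uncertain. In Sg-C3 the same ratio was 604, 493 and 329, a spread of 1.84-fold. There Ciita was highest in Sg-C3 replicate 3 and lowest in replicate 1, whereas H2-Aa was highest in replicate 2. H2-Ab1, H2-Eb1, H2-Ea-ps and Cd74 per Ciita were 1.88, 2.07, 1.97 and 1.57 times as high in Sg-C3, and H2-Aa per Ciita was 1.94 times as high, all without overlap (exact permutation p = 0.1 each). With 1 added to each FPKM before the ratio, the log2 differences of H2-Aa, H2-Ab1, H2-Eb1, H2-Ea-ps and Cd74 against Ciita went from 0.96, 0.91, 1.05, 0.98 and 0.65 to 1.88, 1.83, 1.96, 1.90 and 1.58, so their size depends on this choice. H2-DMb1 per Ciita overlapped between the groups, at 36.1, 37.5 and 30.7 in Sg-Con and 53.8, 44.2 and 30.4 in Sg-C3 (exact permutation p = 0.5). H2-DMa per Ciita was lower in Sg-C3, at 28.8, 21.5 and 17.1 against 58.2, 157 and 35.1 (log2 difference -1.64, and -1.04 without Sg-Con replicate 2). No correlation with Ciita across libraries was computed, because the libraries fall into 2 groups of 3.

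**Figure D2:**
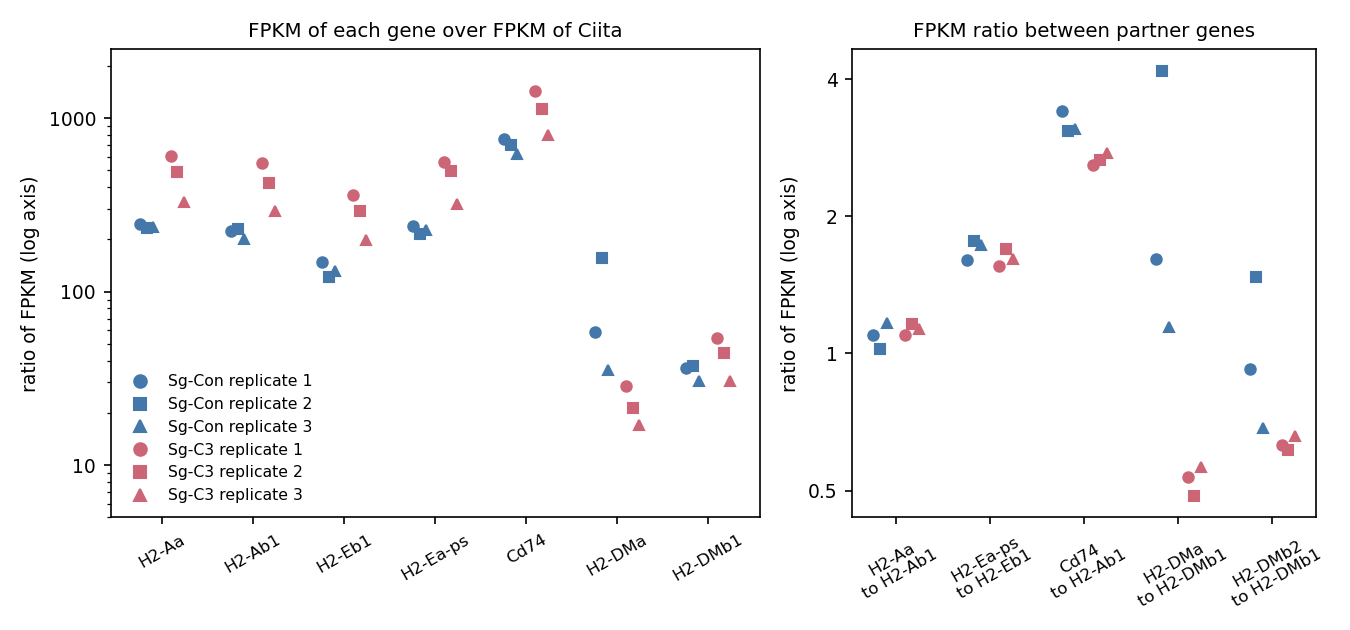
Left, FPKM of 7 class II genes divided by the FPKM of Ciita in the same library, and right, ratios between partner genes, both on log axes, with blue for Sg-Con, red for Sg-C3 and one marker shape per replicate number. The control values of H2-Aa per Ciita lie at 234 to 244, with few Ciita reads in Sg-Con replicate 2, and the Sg-C3 values spread from 329 to 604. H2-DMa to H2-DMb1 lies at 1.15 to 4.18 in controls and at 0.486 to 0.562 in Sg-C3.

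Genes upstream of Ciita in interferon gamma signalling went both ways. Of 12 tested genes of that list 6 were higher, 3 lower and 3 not called, where 12.7% of all tested genes were higher and 31.7% lower, with a median log2 fold change of 0.52 against -0.16 for all genes. The lower count was 1 after median-ratio scaling and without Sg-Con replicate 1 or 2 or Sg-C3 replicate 1 or 2. Ifng, the gene of interferon gamma itself, was listed at 0 in all 3 Sg-Con libraries and at 1.62, 1.15 and 0.85 FPKM in Sg-C3. It missed the filter, and without a filter it was called higher (limma adjusted p = 0.00285), where 32.1% of all 15487 genes were called in either direction. Jak2, a kinase of the receptor, rose from 26.23, 27.17 and 35.91 FPKM in Sg-Con to 104.22, 124.3 and 91.35 FPKM in Sg-C3, by 1.81 on the log2 scale (SE 0.16, limma adjusted p = 0.00107).

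Irf1, whose product acts at the interferon-inducible Ciita promoter, rose from 85.7, 78.58 and 81.26 to 158.16, 146.57 and 154.93 FPKM (log2 fold change 0.90, limma adjusted p = 0.00115), with no dip in Sg-Con replicate 2 comparable to that of Ciita. The inhibitors of the pathway rose as well: Socs1 (log2 fold change 1.32), Socs3 (0.57) and the phosphatase gene Ptpn2 (0.60). Ifngr1, a receptor chain gene, fell from 61.43, 70.64 and 48.93 to 30.46, 32.49 and 41.72 FPKM (log2 fold change -0.77, limma adjusted p = 0.0108). Ifngr2, the other chain, was called lower (-0.25, adjusted p = 0.049), and this call was lost in 10 of 15 alternatives, with p up to 0.401 after median-ratio scaling. Irf2 was called lower (-0.76, adjusted p = 0.0218). Its call was lost after median-ratio scaling (0.056) and without Sg-Con replicate 1 or 2 or Sg-C3 replicate 1 or 2 (0.0601 to 0.0781).

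Rfx5 was the DNA-binding partner of CIITA whose gene was called. Of 14 tested genes of the class II transcription factor list 2 were higher, 2 lower and 10 not called, beside 12.7% higher and 31.7% lower among all tested genes, and the median log2 fold change was 0.05. These counts are small and moved: over the 15 alternatives the higher count ran from 1 (without Sg-Con replicate 1 or 2 or Sg-C3 replicate 1 or 2) to 4 (among others without Sg-C3 replicate 3) and the lower count from 1 to 5. Rfx5, an X box factor, rose from 4.79, 3.58 and 4.2 to 7.1, 6.77 and 6.88 FPKM, by 0.62 on the log2 scale (SE 0.12, limma adjusted p = 0.0069), a rise of 1.65-fold beside the 6.33-fold rise of Ciita. Its partners Rfxank (log2 fold change -0.01, adjusted p = 0.952) and Rfxap (-0.27, adjusted p = 0.0748) were not called. Nor were the NF-Y genes Nfya, Nfyb and Nfyc (-0.09, 0.42 and 0.10) or Creb1 (-0.31). The coactivator gene Crebbp was called higher (0.52, adjusted p = 0.0175, but 0.0503 to 0.0652 without Sg-Con replicate 1 or 2 or Sg-C3 replicate 1 or 2). Among modifier genes, Carm1 was called lower (-0.70, adjusted p = 0.00749) and Kat2b lower (-0.56, adjusted p = 0.0377). The Kat2b call was lost without a filter (0.0501), with title style as a covariate (0.0554), under median-ratio scaling (0.116) or quantile normalization (0.118) and without any 1 of the libraries except Sg-C3 replicate 3 (0.0537 to 0.111). Prdm1, which encodes a repressor of Ciita, was not called (0.29, adjusted p = 0.23).

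Genes for peptide processing, exchange control and turnover went both ways, and among them no cathepsin gene was called higher. Of 13 tested genes for processing, exchange control and turnover 4 were higher, 6 lower and 3 not called, beside 12.7% higher and 31.7% lower among all tested genes, and the median log2 fold change was -0.43. Without any 1 of the Sg-C3 libraries the higher count was 2, because H2-Oa and H2-Ob, described below, then missed the filter and were not tested. Ctss, the cathepsin that trims the invariant chain in many antigen-presenting cells, stood at 1636.88 to 1837.68 FPKM in Sg-Con and 1692.06 to 2020.91 FPKM in Sg-C3, a log2 fold change of 0.12 (SE 0.10, limma adjusted p = 0.368). Ctsl, another cathepsin gene, measured 532.12, 1103.47 and 1019.52 FPKM in Sg-Con and 579.2, 426.59 and 464.25 FPKM in Sg-C3, with overlap. It just missed the threshold (log2 fold change -0.79, limma adjusted p = 0.0508) and was called lower in 4 of 15 alternatives, among them the threshold of 0.1. The protease genes Ctsd (log2 fold change -1.47, adjusted p = 0.00162), Lgmn (-0.62, adjusted p = 0.0102) and Ctsb (-0.58, adjusted p = 0.00394) fell. Ifi30, the lysosomal thiol reductase gene, was called lower (-0.43, adjusted p = 0.0405), a call lost in 8 of 15 alternatives, with p up to 0.159 after median-ratio scaling. Sppl2a, whose protease clears the invariant chain stub, rose from 32.95, 33.51 and 35.48 to 49.67, 57.54 and 47.48 FPKM (log2 fold change 0.58, adjusted p = 0.0052).

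H2-Oa and H2-Ob, the chains of H2-DO, which restrains H2-DM, stood near 0 in controls. H2-Oa measured 0.05, 0.1 and 0.32 FPKM in Sg-Con and 1.91, 1.26 and 1.23 FPKM in Sg-C3, and H2-Ob 0.41, 0.08 and 0.33 against 2.28, 2.74 and 2.76 FPKM. Both passed the filter only through their Sg-C3 values, so their place among the 4 higher genes is no support for a rise, and both stayed far below H2-DMa and H2-DMb1. The ubiquitin ligase genes that act on surface class II went apart: Marchf1 rose from 11.46, 9.32 and 8.23 to 15.51, 18.48 and 14.84 FPKM (log2 fold change 0.70, adjusted p = 0.00862), and Marchf8 fell from 14.32, 14.47 and 13.55 to 7.6, 7.83 and 8.59 FPKM (-0.75, adjusted p = 0.00223). Cd83, which opposes MARCH1, was called lower (-0.85, adjusted p = 0.0273). That call was lost after median-ratio scaling (0.0592) and without Sg-Con replicate 1 or 2 or Sg-C3 replicate 1 or 2 (0.0517 to 0.0951).

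Cd74 also serves as a surface receptor for the cytokine MIF. Of 5 tested genes of that axis 0 were called higher and 1 lower, beside 12.7% higher and 31.7% lower among all tested genes. Mif stood at 260.09, 264.82 and 268.2 FPKM in Sg-Con and 277.41, 260.04 and 244.54 FPKM in Sg-C3, a log2 fold change of -0.02 (SE 0.08, limma adjusted p = 0.838). Cd44, the signalling partner, had a log2 fold change of -0.07 (adjusted p = 0.664), and Cxcr4, a coreceptor, fell from 98 ± 13.4 to 48.6 ± 10.1 FPKM (SD, n = 3 per group; -1.01, adjusted p = 0.00505).

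**Figure D3:**
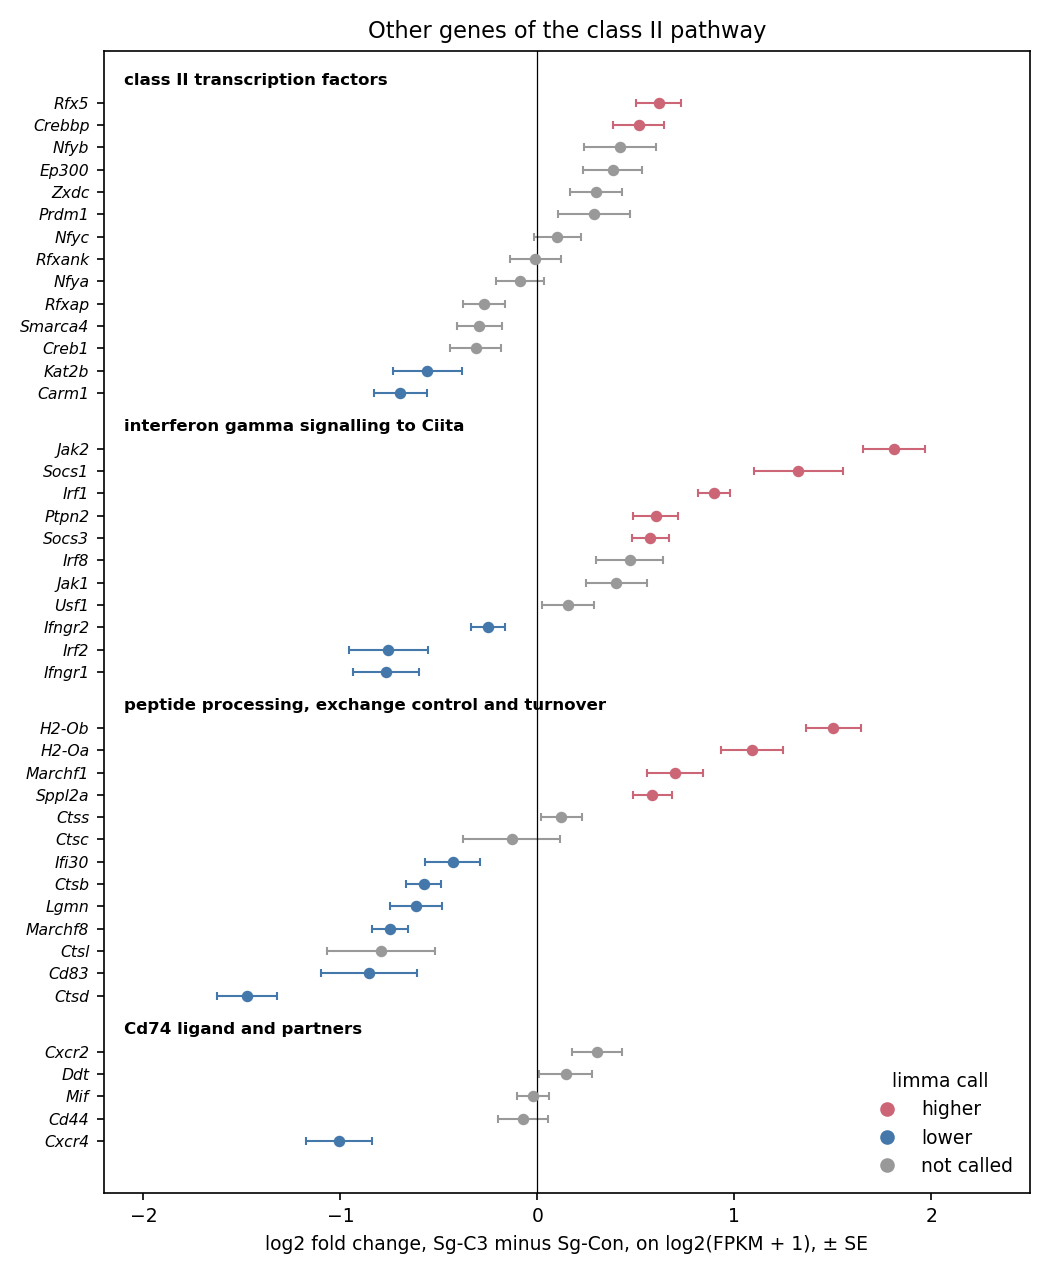
Log2 fold change (Sg-C3 minus Sg-Con on log2(FPKM + 1)) with limma's SE for tested genes of 4 class II pathway lists, red where called higher, blue where called lower and grey where not called at an adjusted p of 0.05. Jak2 lies farthest to the right at 1.81 and Ctsd farthest to the left at -1.47.

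Other cells that carry class II could be in the sort, and their markers moved in part. Of 16 dendritic cell markers 9 were tested, 4 were higher and 1 lower, beside 12.7% and 31.7% of all tested genes. Without a filter, where 32.1% of all 15487 genes were called in either direction, 6 of the 16 were called higher and 1 lower. Their summed FPKM was 121 to 167 in Sg-Con and 244 to 275 in Sg-C3, most of it from Bst2, which interferons also induce (77.08 to 119.72 against 169.35 to 180.81 FPKM). Ccr7 (1.33 to 3.23 against 21.46 to 46.05 FPKM), Batf3 (0.16 to 2.99 against 6.15 to 9.68) and Xcr1 (1.17 to 3.06 against 3.81 to 7.85) were the other higher ones, of which Xcr1 lost its call without Sg-C3 replicate 1 or 2 (limma adjusted p = 0.0506 and 0.0563). The 2 called only without a filter were Clec9a, a marker of cross-presenting dendritic cells (0.04 to 0.09 against 0.62 to 1.46 FPKM, limma adjusted p = 0.0064), and Dpp4 (0.11 to 0.24 against 0.76 to 1.54 FPKM, adjusted p = 0.00923). The lower marker was Tcf4 (15.82 to 20.23 against 10.58 to 12.8 FPKM, limma adjusted p = 0.0103). Clec10a (5.3 to 14.03 against 4.62 to 6.57 FPKM) was not called (limma adjusted p = 0.105). It was called lower without Sg-Con replicate 2 (0.00817). Kmo and Cd209a had lower means in Sg-C3 and were not called. Of the defining markers, Flt3 was 0.14, 0.21 and 0.17 FPKM in Sg-Con and 0.26, 0.23 and 0.33 FPKM in Sg-C3, low in all libraries and without overlap, and was not called (limma without a filter, adjusted p = 0.24). Zbtb46 was 0.54, 0.71 and 0.9 FPKM in Sg-Con and 0.82, 0.87 and 0.55 FPKM in Sg-C3, with overlap, and was not called (adjusted p = 0.883). Among the 3 controls, replicate 2 was the lowest for 8 of the 16 dendritic cell markers, Batf3, Ccr7, Bst2, Clec9a, Dpp4, Clec10a, Siglech and Kmo. It was also the lowest for 5 of 11 macrophage, 3 of 6 B cell, 5 of 9 T cell and 6 of 8 NK cell markers. For neutrophil and carcinoma markers this held for 6 of 9 and 2 of 6, and the share over all genes was not computed. Replicate 2 also had the lowest sums of the dendritic cell, B cell, T cell, NK cell and neutrophil lists.

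The deposited data held 6 of the B cell markers, of which 1 was tested and not called, with summed FPKM of 1.79 to 4.73 in Sg-Con and 4.81 to 7.17 in Sg-C3. Pax5 was at most 0.19 FPKM in any library. The 11 macrophage markers, all tested, summed to between 14805.5 and 16232.1 FPKM in Sg-Con and between 8739.27 and 11316.1 FPKM in Sg-C3. Of them Lyz2, Cd68, Itgam and Mertk were called lower, none higher and 7 not called, beside 31.7% lower and 12.7% higher among all tested genes. Lyz2 was the largest part of the macrophage sum in every library, at 6928.27 to 8717.74 FPKM in Sg-Con and 2709.98 to 3730.34 FPKM in Sg-C3. T cell markers summed to 2.73 to 6.31 and 16.5 to 24.5 FPKM, NK cell markers to 1.52 to 4.15 and 31.2 to 38.4, neutrophil markers to 139 to 221 and 388 to 1330, and carcinoma markers to 15.2 to 29.7 and 2.27 to 3.03 FPKM. Most of the T cell sum in each Sg-C3 library came from a single marker. In Sg-Con most of the carcinoma sum was Krt8 (8.92 to 21.86 against 0.26 to 0.36 FPKM), which was called lower, as was Cdh1. Epcam, Krt18, Krt19 and Cldn4 missed the filter and were not called without it. Among these lists, without a filter, 6 of 9 T cell markers and 7 of 8 NK cell markers were called higher, none of either lower. Of all 15487 genes, 32.1% were called in either direction without a filter. The part of any of these cells in the rise of the class II genes was not tested.

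**Figure D4:**
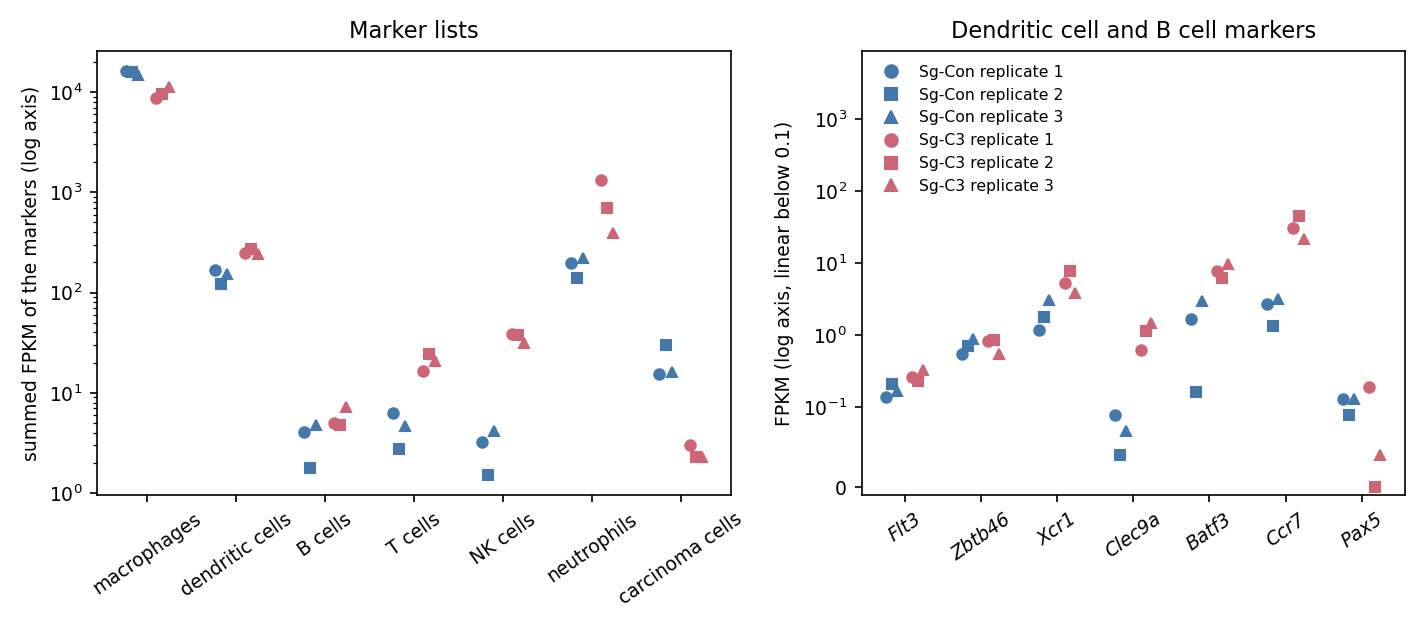
Left, summed FPKM (log axis) of the markers of 7 cell types in each library, and right, FPKM of 6 dendritic cell markers and 1 B cell marker (log axis, linear below 0.1), with blue for Sg-Con, red for Sg-C3 and one marker shape per replicate number. The dendritic cell sums lie between 121 and 275 FPKM and the macrophage sums between 8739.27 and 16232.1, and Flt3 and Pax5 stay below 0.34 FPKM in all libraries.

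Genes with a like pattern were looked for by the root mean square difference between profiles of log2(FPKM + 1) over the 6 libraries, each centred on its own mean, among 7640 other tested genes with a mean of at least 5 FPKM. From the mean profile of H2-Aa, H2-Ab1, H2-Eb1 and Cd74, H2-Ea-ps, which was not part of that mean, differed by 0.08, H2-DMb1 by 0.35, H2-DMb2 by 0.75, Ciita by 1.05 and H2-DMa by 1.42. The 8 nearest other genes were Dnase1l3, a secreted DNase gene (0.49), Itgax, the gene of CD11c (0.51), Gpr31b (0.52), the inhibitory receptor gene Lag3 (0.62), Klra17 (0.64), Tlr12 (0.68), the histidine decarboxylase gene Hdc (0.69) and Il12b (0.70). None came as near as H2-DMb1.

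Itgax was also lowest in Sg-Con replicate 2, at 38.48, 8.43 and 36.91 FPKM in Sg-Con and 175.31, 210.09 and 205.42 FPKM in Sg-C3. The 8 genes nearest to Ciita were Slamf8 (0.17), Plbd1 (0.23), the beta-glucan receptor gene Clec7a (0.25), Adgrg5 (0.26), Grap2 (0.27), Gbp6 (0.27), the chemokine gene Ccl8 (0.27) and the complement factor B gene Cfb (0.28). Slamf8 measured 6.42, 2.33 and 7.6 FPKM in Sg-Con and 18.86, 28.55 and 25.58 FPKM in Sg-C3. H2-DMb2 and H2-DMa, at 0.37 and 0.45, were nearer to Ciita than H2-Aa at 1.08, on a scale that shrinks the changes of genes as low as Ciita. Without the added 1, the log2 ratio to Ciita differed between the groups by -1.64 for H2-DMa and 0.96 for H2-Aa. The order of these genes by nearness to Ciita thus depends on the added 1, and no ratio of H2-DMb2 to Ciita was formed. The points share their libraries, so these distances are descriptions of 6 libraries in 2 groups.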

How the data were processed

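RNA of sorted tumour-associated macrophages was measured in 3 Sg-Con and 3 Sg-C3 libraries, grouped by the source name in the labels. The authors deposited 1 FPKM value per gene and library, per the file headers. Bowtie 0.12.2 and mm8 are the tool and genome build in the submitters' processing notes. No source used here names the program behind the FPKM. Trizol extraction and both a TruSeq and an MGIEasy library kit are named per the labels' protocols. Date-like symbols (23) were restored through the RefSeq table of GRCm38.p6. A column headed cluster was not used.

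Genes with at least 1 FPKM in 3 libraries were tested with limma 3.58.1 in R 4.3.3 (trend) on log2(FPKM + 1), with Benjamini-Hochberg adjustment over all tested genes and a threshold of 0.05. Other steps used Python 3.11.15, pandas 2.3.3, numpy 2.4.6 and matplotlib 3.10.9. The limma script was tested on simulated data. Depth was estimated from 444 short non-coding genes, whose low values fell on whole reads (tolerance 0.1 read) in 87.4% to 94.6% of cases once 36 bases were taken from each length. These depths are estimates, and reads per gene rest on GENCODE M21 transcript lengths.

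The members, lists and ratios were chosen with earlier results of these data known. The text names all members, every called gene of a pathway list and up to 5 others by smallest p, and the 8 nearest profiles. A pathway gene and a marker counted in their lists are not reported here by name. Other genes named, such as Rfxank, Nfya, Nfyc, Prdm1 and single markers, were chosen after their values were seen. Alternatives were another pseudocount, other filters, other scalings, array weights, a robust prior, title style as a covariate (the third library of each group is titled unlike the others), a threshold of 0.1 and leaving out each library.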

Additional observations from a re-analysis of the deposited data

How the results depend on the processing

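The 9 members called higher were called higher under each of the 15 alternatives, with adjusted p of at most 0.0283, and the genes called were the same 9. The largest shift of a member came from leaving out Sg-Con replicate 2 (values in the report) or, for Ciita, from a pseudocount of 0.1. Counts over all genes moved more. Of the 4972 genes called, leaving out 1 library gave between 2780 and 5062, with 3293 without Sg-C3 replicate 1 and the lowest without Sg-C3 replicate 2. The 1418 higher gave between 810 and 1423, with 879 without Sg-C3 replicate 1. The 3554 lower gave between 1970 and 3639, against 2134 after median-ratio scaling. That scaling gave 2088 higher, and quantile normalization 1845 higher and 2459 lower, so the excess of lower genes depends on the scaling. Of 44 tested pathway genes 12 were higher and 12 lower, with 17 higher and 7 lower after median-ratio scaling and between 7 and 13 lower when 1 library was left out. After quantile normalization the log2 ratio difference of H2-Aa to H2-Ab1 was 0.14. Adding 1 to each FPKM before the ratio moved the log2 differences against Ciita, which is near 1 FPKM, to 1.88 for H2-Aa, 1.83 for H2-Ab1, 1.96 for H2-Eb1, 1.90 for H2-Ea-ps, 1.58 for Cd74, -0.72 for H2-DMa and 1.15 for H2-DMb1. The median of all genes moved from -0.16 to -0.06 after quantile normalization and to -0.02 after median-ratio scaling. No paired analysis was possible because the labels carry no replicate numbers; those used here were given in accession order and pair no libraries. Depth limits H2-Eb2 and, in Sg-Con replicate 2, Ciita.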
